A study of Mus musculus with 21 samples.

Results

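Gata4, Gata6, Sox17, Sox7, Foxa1, Hhex and Cxcr4, a group of genes that regulate or mark endoderm, were followed by gene name through all 15 RNA sequencing libraries of a study of mouse embryonic stem (ES) cells of the strain labelled V6.5. They are 7 of the 53796 genes listed in each deposited table, and each name occurred once per table. The libraries fall into 5 groups of 3. Dot1l knockout (KO) cells and control cells, which are labelled WT and carry a control guide RNA, were each sequenced in serum medium with 100 U/ml of the cytokine LIF, in which ES cells stay undifferentiated. Both were also sequenced after 2 days in serum-free N2B27 medium followed by 24 h of Wnt3a (50 ng/ml) and activin A (10 ng/ml), a combination that drives ES cells towards primitive streak and endoderm. The last group, labelled only as ES cells, carries the Cdk1as/as genotype, was also kept with 100 U/ml of LIF and received no treatment. Per the labels' protocols ES cells were maintained on inactivated mouse fibroblasts. Neither the clonal origin of the KO cells nor separate culturing of the replicates is given in the labels, and the p-values rest on the variation among these libraries, which may be technical alone.

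Gata4 and Gata6 are zinc finger transcription factors, and Sox17 and Sox7 are related HMG-box factors of the SoxF group. In the mouse embryo Gata6 acts early in primitive endoderm, the extraembryonic lineage of the blastocyst, and Gata4, Sox17 and Sox7 act after it. Sox17, Foxa1, Hhex and the chemokine receptor gene Cxcr4 also mark definitive endoderm, which forms from the anterior primitive streak under Nodal or activin signalling. Dot1l is the methyltransferase that places the H3K79 methyl marks on nucleosomes, mostly over transcribed genes. None of the 7 genes belongs to endoderm alone: Gata4 and Gata6 are also cardiac, Sox17, Sox7 and Hhex also endothelial, and Cxcr4 is widespread in blood and migrating cells.

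Expression was given as FPKM, a count of sequenced fragments scaled to transcript length and library size, so levels of different genes can be set side by side. Sequencing depth is unknown. Summed FPKM was 759255 to 792381 in KO libraries and 1087971 to 1144373 in control libraries under Wnt3a and activin A. In LIF it was 835737 to 1079784 in KO libraries and 840269 to 895128 in control libraries. One library stood apart, KO replicate 3 in LIF, in which the small RNA gene Mir6236 took 28.6% of summed FPKM, against 8.31% or less in every other library. Dot1l itself was at 11.2, 8.90 and 10.8 FPKM in KO libraries and at 21.2, 20.6 and 24.6 FPKM in control libraries in LIF. Under Wnt3a and activin A it was at 13.5, 12.9 and 14.7 FPKM in KO libraries and at 18.5, 17.7 and 19.1 FPKM in control libraries. The transcript was thus lower in KO libraries (log2 fold changes of -1.04 and -0.40, limma adjusted p = 0.0178 and 0.00462) but present in all of them, and the protein was not measured. Without any 1 of the 6 LIF libraries the Dot1l call in LIF did not pass (log2 fold changes of -1.09 to -0.94, limma adjusted p = 0.0609 to 0.0867).

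All 7 endoderm regulators were higher in Dot1l KO cells than in control cells under Wnt3a and activin A. The size of the difference was graded: Cxcr4 was 4.84 times and Foxa1 4.11 times as high in KO cells by mean FPKM, Gata6, Sox17 and Hhex 3.18, 2.61 and 2.33 times, Sox7 1.76 times and Gata4 1.33 times. Each of the 7 passed an adjusted p of 0.05 in limma, in a test of the 12770 genes whose mean reached 1 FPKM. In that comparison 49.1% of all genes tested were called, with 19.6% higher and 29.5% lower in KO cells. In the authors' deposited table all 7 were called significant too, as were 45.1% of the genes they tested. The median log2 fold change of the 7 genes was 1.11, against -0.08 for all genes tested. The lowest KO library lay above the highest control library in all 7, as it did for 25.3% of genes tested. The members were chosen with results of these data known, so these counts describe the genes and carry no test of the group. In bulk RNA, more cells of a kind cannot be told apart from more RNA per cell.

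**Figure D1:**
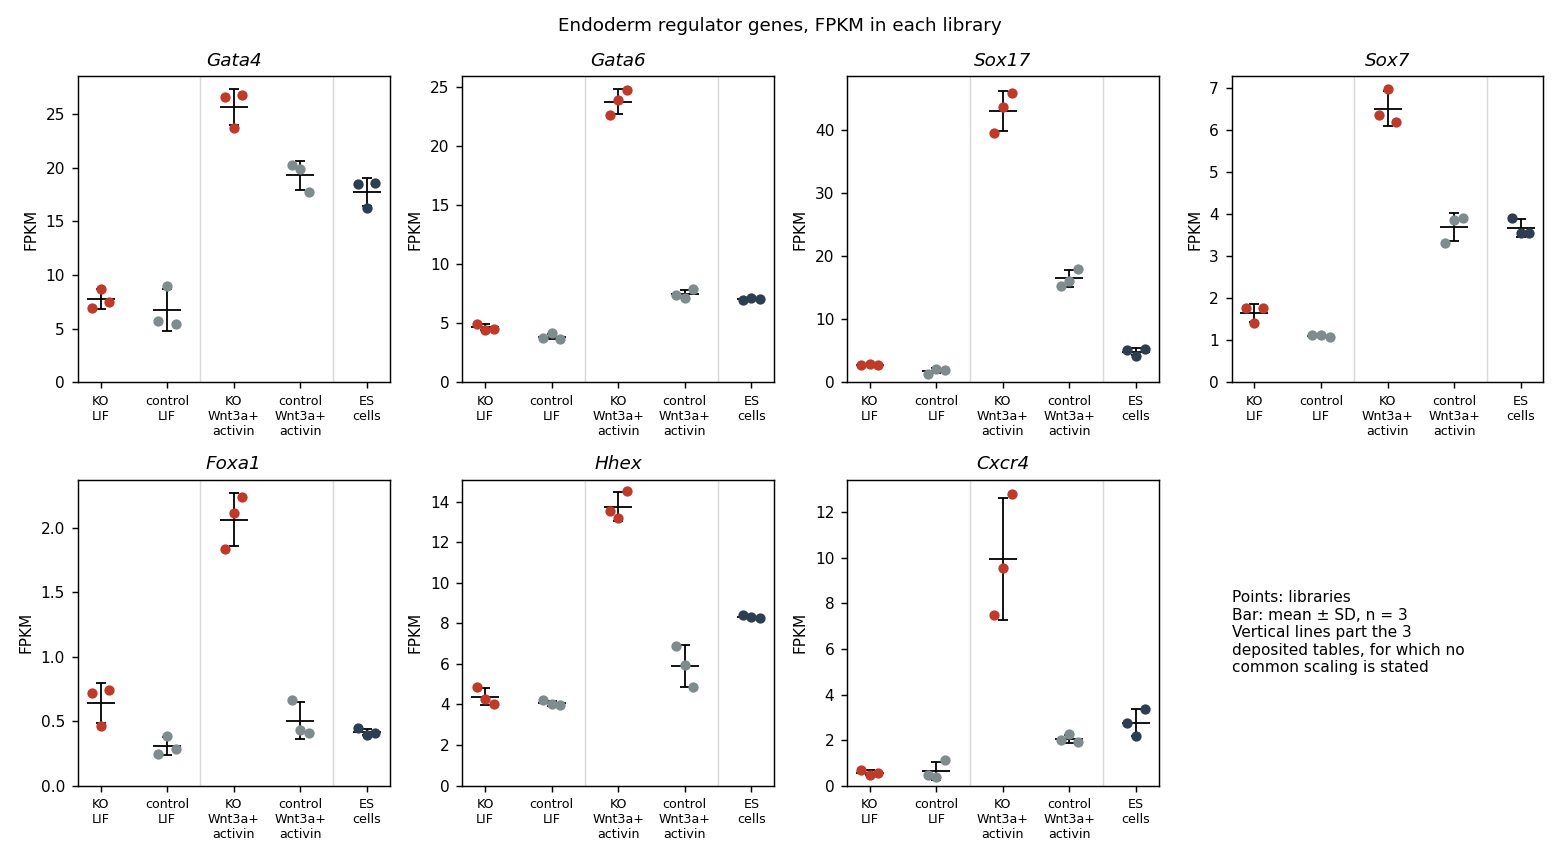
FPKM of each endoderm regulator (vertical axis, from 0) in every library of the 5 groups, with the mean and SD of 3 libraries. The KO libraries under Wnt3a and activin A stand highest in all 7 panels, above every control library of that condition, with Sox17 between 39.6 and 45.9 FPKM.

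The GATA factor genes differed in how far they rose. Gata6 (ENSMUSG00000005836; GRCm38 chromosome 18, 11049086 to 11085635) was at 22.6, 23.9 and 24.8 FPKM in KO libraries, against 7.42, 7.14 and 7.87 FPKM in control libraries under Wnt3a and activin A. The groups were far apart, with a log2 fold change of 1.55 on the log2(FPKM + 1) scale (95% interval 1.38 to 1.72, limma adjusted p = 6.45e-05), and it ranked 189 among the genes tested by fold change. The table lists a gene named 1010001N08Rik at the same locus, at 2.02, 1.34 and 0.648 FPKM in KO libraries and 1.33, 1.01 and 0.393 FPKM in control libraries. It stood far below Gata6 in level in both groups, and how the authors divided reads at the locus is unknown. Gata4 (ENSMUSG00000021944, chromosome 14, 63198921 to 63271692) was at 26.5, 23.7 and 26.7 FPKM in KO libraries, against 20.2, 19.8 and 17.8 FPKM in control libraries. These groups were close but did not overlap, and the log2 fold change was 0.40 (95% interval 0.20 to 0.59, limma adjusted p = 0.00779). It was the smallest difference among the 7 genes.

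Among the SoxF genes Sox17, a central factor of definitive endoderm, rose more than Sox7. Sox17 (ENSMUSG00000025902, chromosome 1, 4490930 to 4499558) was at 39.6, 43.7 and 45.9 FPKM in KO libraries, against 15.3, 16.1 and 18.0 FPKM in control libraries. It had the highest level of the 7 genes in KO cells, and its log2 fold change was 1.33 (95% interval 1.12 to 1.54, limma adjusted p = 0.00013). Gm37587, listed at the Sox17 locus, was at 0 in all 12 libraries of both KO tables. Sox7 (ENSMUSG00000063060, chromosome 14, 63943672 to 63950732), which can act in place of Sox17 in some settings, was at 6.37, 6.98 and 6.18 FPKM in KO libraries and at 3.30, 3.86 and 3.90 FPKM in control libraries. Its log2 fold change was 0.68 (95% interval 0.44 to 0.92, limma adjusted p = 0.00208), so the intervals of the SoxF genes did not overlap.

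Hhex and Foxa1, transcription factor genes of anterior endoderm and later of liver and gut, rose at different levels. Hhex (ENSMUSG00000024986, chromosome 19, 37434809 to 37440731), a homeobox gene, was at 13.5, 13.2 and 14.5 FPKM in KO libraries, against 6.91, 5.93 and 4.87 FPKM in control libraries. Its log2 fold change was 1.11 (95% interval 0.81 to 1.40, limma adjusted p = 0.000756). Foxa1 (ENSMUSG00000035451, chromosome 12, 57540627 to 57546916), a forkhead factor that can open closed chromatin, was at 1.84, 2.11 and 2.24 FPKM in KO libraries, against 0.667, 0.428 and 0.411 FPKM in control libraries. It remained the lowest of the 7 genes in KO cells. Its log2 fold change was 1.03 (95% interval 0.66 to 1.40, limma adjusted p = 0.00239), and 1.87 with a pseudocount of 0.1 in place of 1, since adding 1 compresses changes at this level. Foxa1 passed the filter of 1 FPKM only through the KO libraries, so its place among the genes tested depended on its being high there.

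Cxcr4, the receptor for the chemokine Cxcl12 and a surface marker used to sort definitive endoderm, had the largest fold difference of the 7. Cxcr4 (ENSMUSG00000045382, chromosome 1, 128588198 to 128592293) was at 7.49, 9.57 and 12.8 FPKM in KO libraries, against 2.01, 2.26 and 1.91 FPKM in control libraries. The KO libraries had a mean of 9.95 ± 2.68 FPKM (SD, n = 3), against 2.06 ± 0.181 FPKM in control libraries (SD, n = 3). Its log2 fold change was 1.81 (95% interval 1.36 to 2.27, limma adjusted p = 0.000575), and it ranked 121 among the genes tested. Its ligand gene Cxcl12 was at 2.12 ± 0.0401 FPKM in KO cells and 2.47 ± 0.258 FPKM in control cells (SD, n = 3), with a log2 fold change of -0.15 that did not pass (limma adjusted p = 0.316). Ackr3, which encodes the other receptor of Cxcl12, rose, with a log2 fold change of 0.63 (limma adjusted p = 0.0144) at 1.45 FPKM in KO cells and 0.587 FPKM in control cells, and it passed the filter of 1 FPKM only through the KO libraries.

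The sequences before the starts of Cxcr4, Hhex and Foxa1, the members that RefSeq's promoter table for GRCm38.p6 holds and that rose together here, are shown because they sit where these genes are switched on. For Cxcr4 the 250 bases before the start are given (chr1:128592300-128592549, minus strand) with a TATA box, TATAAA on the gene's strand, in capitals, which begins 30 bases before the start and occurs in 7.59% of 32851 promoter windows of that length. For Foxa1, whose window lies within the gene locus of the expression tables, 30 bases are given (chr12:57546234-57546263, minus strand) around a forkhead motif, GTAAACA on either strand, in capitals, which 3.17% of windows hold. For Hhex the 218 bases outside that locus are given (chr19:37434591-37434808, plus strand).
Cxcr4: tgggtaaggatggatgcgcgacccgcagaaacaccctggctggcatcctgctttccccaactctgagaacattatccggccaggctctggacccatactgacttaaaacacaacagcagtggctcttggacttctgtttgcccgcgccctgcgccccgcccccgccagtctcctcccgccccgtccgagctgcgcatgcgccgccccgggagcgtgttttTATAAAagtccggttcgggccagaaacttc
Foxa1: tatactgctttGTAAACAaagtgagggcca
Hhex: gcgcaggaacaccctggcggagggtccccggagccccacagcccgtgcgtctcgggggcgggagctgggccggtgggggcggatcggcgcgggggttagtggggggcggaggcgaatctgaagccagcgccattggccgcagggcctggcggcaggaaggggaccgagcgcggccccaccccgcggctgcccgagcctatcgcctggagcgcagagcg
The windows were rich in CpG, a C followed by a G on the same strand, at which DNA can be methylated, with 19, 21 and 32 in 250 bases for Cxcr4, Foxa1 and Hhex, against a median of 6 over all windows. The TCF/LEF motif CTTTGAT (in 3.21% of windows), the T-box motif TCACACC (3.33%), the motif AGATAA of GATA factors (9.99%) and the Smad motif GTCTAGAC (0.167%), sought on both strands, had no match in any of the 3 windows of 250 bases. A match or its absence in such a window is a description of letters and not of binding.

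In LIF each of the 7 genes had a lower ratio of Dot1l KO to control cells by mean FPKM than under Wnt3a and activin A. By mean, 6 of the 7 were higher in KO cells, and Sox17 at 1.53 times, Sox7 at 1.49 times and Foxa1 at 2.11 times were the larger of them. Of the 5 members that reached a mean of 1 FPKM, 0 passed an adjusted p of 0.05 in limma. Of all 13153 genes tested 4.41% did, 0.958% higher and 3.45% lower in KO cells. Before adjustment 1 of them, Sox17, was under 0.05 in limma. In the authors' deposited table Sox7 alone of the 7 was called significant, with a q-value of 0.0334, where 6.73% of the genes they tested were called. Every KO library lay above every control library in 3 of the 5 members tested, Gata6, Sox17 and Sox7, and in 8.66% of all genes tested. Their median log2 fold change was 0.21, against -0.07 for all genes tested. A difference that did not pass in LIF was not thereby shown to be small.

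Sox17 was at 2.70, 2.91 and 2.80 FPKM in KO libraries in LIF, against 1.39, 2.17 and 1.94 FPKM in control libraries. The groups did not overlap, but the log2 fold change of 0.44 did not pass (95% interval 0.08 to 0.79, limma adjusted p = 0.137). Sox7 was at 1.77, 1.40 and 1.77 FPKM in KO libraries, against 1.13, 1.12 and 1.07 FPKM in control libraries (log2 fold change 0.33, 95% interval -0.02 to 0.67, limma adjusted p = 0.223). Gata6 was at 4.94, 4.47 and 4.53 FPKM in KO libraries, against 3.78, 4.15 and 3.70 FPKM in control libraries (0.21, 95% interval -0.01 to 0.43, limma adjusted p = 0.219). For these 3 genes every KO library lay above every control library, though none of the 3 passed. Gata4 was at 6.89, 8.73 and 7.52 FPKM in KO libraries and at 5.68, 9.00 and 5.47 FPKM in control libraries, and control replicate 2 was its highest library. Hhex was at 4.86, 4.28 and 4.02 FPKM in KO libraries and at 4.20, 4.00 and 3.96 FPKM in control libraries. Both groups overlapped, with log2 fold changes of 0.20 for Gata4 (95% interval -0.26 to 0.66, limma adjusted p = 0.564) and 0.09 for Hhex (95% interval -0.15 to 0.33, limma adjusted p = 0.618).

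Cxcr4 and Foxa1 were below 1 FPKM in LIF and were left out of that test. Cxcr4 was at 0.682, 0.470 and 0.557 FPKM in KO libraries and at 0.482, 0.363 and 1.11 FPKM in control libraries, so its groups overlapped. Foxa1 was at 0.719, 0.465 and 0.738 FPKM in KO libraries and at 0.246, 0.381 and 0.285 FPKM in control libraries, which did not overlap. With the filter lowered to 0.3 FPKM their log2 fold changes were -0.05 for Cxcr4 and 0.33 for Foxa1, and neither passed (limma adjusted p = 0.910 and 0.215). Without KO replicate 3, the library with the high share of Mir6236, the log2 fold changes in LIF were 0.44 for Sox17, 0.29 for Sox7, 0.23 for Gata6, 0.21 for Gata4 and 0.14 for Hhex, and again 0 of the 5 passed.

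**Figure D2:**
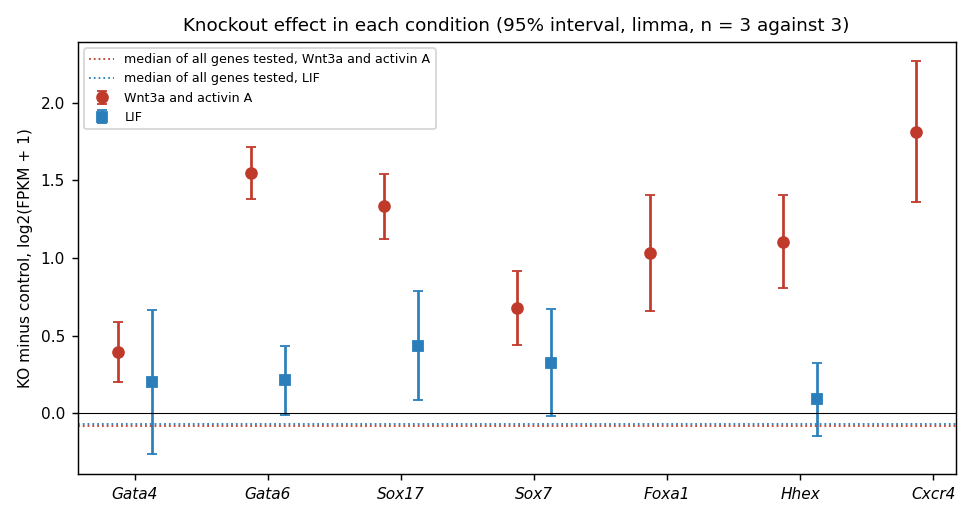
Log2 fold change of KO over control on the log2(FPKM + 1) scale for each endoderm regulator, under Wnt3a and activin A (circles) and in LIF (squares), with 95% intervals from limma and n = 3 libraries in each group. Cxcr4 and Foxa1 have no LIF value because they were below the filter, and under Wnt3a and activin A the values run from 0.40 for Gata4 to 1.81 for Cxcr4.

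Whether the effect of the knockout differed between the conditions was tested as an interaction over the 12 libraries of both tables. The knockout effect was larger under Wnt3a and activin A than in LIF for Gata6, by 1.34 on the log2 scale (95% interval 1.11 to 1.56, limma adjusted p = 1.37e-05), for Hhex by 1.02 (0.67 to 1.36, limma adjusted p = 0.000587) and for Sox17 by 0.90 (0.56 to 1.24, limma adjusted p = 0.00122). These 3 of the 5 members tested passed. Of all 11783 genes tested 38.3% passed, and 17.6% of the 11783 passed in this direction. For Sox7 the difference of 0.35 did not pass (95% interval 0.04 to 0.67, limma adjusted p = 0.0743). For Gata4 it was 0.20 (95% interval -0.28 to 0.68, limma adjusted p = 0.507), so a larger effect under Wnt3a and activin A was not shown for it. Cxcr4 and Foxa1 entered only with the filter at 0.3 FPKM, where their differences of 1.86 and 0.70 passed (limma adjusted p = 0.000613 and 0.00893).

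Levels in the 5 groups were set side by side with no test, because no common scaling of the tables is stated. For all 7 genes, libraries under Wnt3a and activin A stood above LIF libraries of the same genotype. Across genotypes the exception was Foxa1, which averaged 0.641 FPKM in KO cells in LIF and 0.502 FPKM in control cells under Wnt3a and activin A, and overlapped. The widest span was that of Sox17, which averaged 43.1 ± 3.21 FPKM in KO cells and 16.5 ± 1.38 FPKM in control cells under Wnt3a and activin A, and 2.81 ± 0.105 FPKM in KO cells and 1.83 ± 0.399 FPKM in control cells in LIF (SD, n = 3 each). Summed over the 7 genes, libraries held 118 to 133 FPKM in KO cells and 54.7 to 55.8 FPKM in control cells under Wnt3a and activin A. In LIF the sums were 21.9 to 22.7 FPKM in KO cells and 16.9 to 21.2 FPKM in control cells.

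The untreated ES cells with the Cdk1as/as genotype held more of these transcripts than the control cells in LIF, with summed levels of 42.0 to 46.4 FPKM. Gata4 was at 18.4, 16.2 and 18.6 FPKM there, which overlapped control cells under Wnt3a and activin A. Gata6 at 7.01, 7.14 and 7.03 FPKM and Sox7 at 3.92, 3.55 and 3.54 FPKM also overlapped those control cells. Hhex at 8.39, 8.31 and 8.28 FPKM stood above them. Sox17, at 5.12, 4.21 and 5.27 FPKM, was the one member that stood below the differentiating control cells, while above the KO and control cells in LIF. Cxcr4 was at 2.77, 2.19 and 3.34 FPKM and overlapped control cells under Wnt3a and activin A, and Foxa1 was at 0.444, 0.395 and 0.408 FPKM and overlapped them too. Genotype and table differ together between these ES cells and the LIF controls, and culture may differ beyond the shared 100 U/ml of LIF. These cannot be told apart.

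The order of the genes also changed. In LIF cells of both genotypes and in ES cells Gata4 stood first. Under Wnt3a and activin A Sox17 stood first in KO cells, with Gata4 and Gata6 overlapping each other behind it, and in control cells Gata4 and Sox17 overlapped at the top while Gata6 was at less than either. Foxa1 was last or, in LIF, overlapped Cxcr4 at the bottom.

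Ratios between members within a library do not depend on how libraries were scaled. Gata6 over Gata4 was 0.853, 1.01 and 0.926 in KO libraries under Wnt3a and activin A, against 0.367, 0.360 and 0.444 in control libraries. In LIF it was 0.716, 0.512 and 0.603 in KO libraries and 0.666, 0.461 and 0.676 in control libraries, which overlapped. The balance of the GATA genes was thus near even in differentiating KO cells, which none of the other groups reached. Sox17 over Sox7 was 6.21, 6.27 and 7.42 in KO libraries under Wnt3a and activin A and 4.63, 4.18 and 4.61 in control libraries, while LIF libraries of both genotypes lay between 1.24 and 2.08. Cxcr4 over Sox17 was 0.189, 0.219 and 0.279 in KO libraries and 0.131, 0.140 and 0.106 in control libraries under Wnt3a and activin A. In LIF its mean was the lower one in KO libraries, at 0.252, 0.161 and 0.199 against 0.346, 0.167 and 0.572 in control libraries, and the groups overlapped. Hhex over Foxa1 was lower in KO libraries in both conditions, at 7.35, 6.25 and 6.49 against 10.3, 13.9 and 11.8 in control libraries under Wnt3a and activin A, and at 6.76, 9.21 and 5.45 against 17.1, 10.5 and 13.9 in control libraries in LIF. Sox17 over Gata6 was 1.75, 1.83 and 1.85 in KO libraries and 2.06, 2.26 and 2.29 in control libraries under Wnt3a and activin A, and 0.548, 0.652 and 0.617 in KO libraries against 0.368, 0.523 and 0.524 in control libraries in LIF. Of 10 comparisons of 5 ratios, 7 had groups that did not overlap, each with an exact two-sided permutation p of 0.10 (adjusted p = 0.143), the smallest that 3 libraries against 3 can give. Several ratios share a member, and how often ratios of other genes part the groups was not counted. The number thus describes these ratios alone. Foxa1 was below 1 FPKM in every library except the KO libraries under Wnt3a and activin A, and Cxcr4 averaged below 1 FPKM in LIF. Ratios with these genes there rest on low values at unknown depth.

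**Figure D3:**
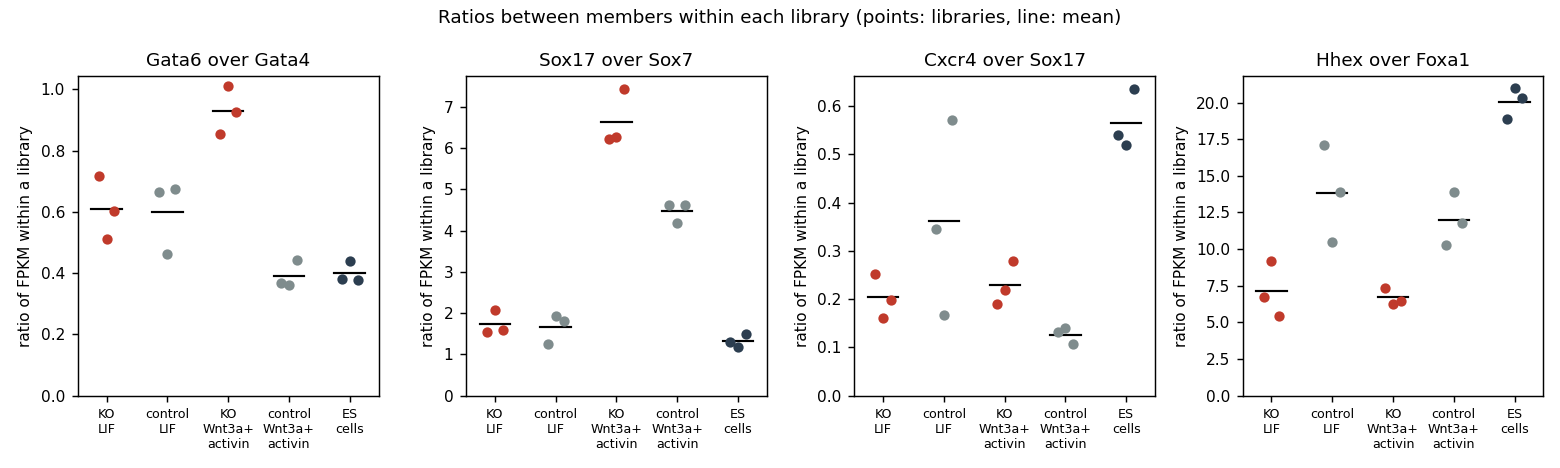
Ratio of FPKM of 2 endoderm regulators within each library (vertical axis, from 0), in the 5 groups, with the mean as a line. Gata6 over Gata4 was 0.853 to 1.01 in the KO libraries under Wnt3a and activin A and 0.360 to 0.444 in the control libraries, and Hhex over Foxa1 was lower in the KO libraries in both conditions. Foxa1 was below 1 FPKM in every library except the KO libraries under Wnt3a and activin A.

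The genes whose levels followed Gata4, Gata6, Sox17 and Cxcr4 most closely over the 12 KO and control libraries were sought among 12369 named genes. These correlations are descriptions, since the libraries share 4 groups and most of the variation lies between the conditions. Sox17 was followed most closely by Tgfbr3, a coreceptor of TGF-beta ligands, and by Lama1 and Col4a1, which encode chains of basement membrane laminin and collagen, each with Pearson's r = 0.996. Gata6 was followed by Flrt3 (r = 0.995), Amot and the early mesoderm gene Mesp1 (r = 0.994 each). For Gata4 the closest were Tsc22d3 (0.989), Sulf1 and Ube2d1 (0.985 each), and for Cxcr4 they were Cemip (0.987), Ror1 (0.984) and the desmosome gene Dsp (0.983). Mesp1, Cemip and Ror1 averaged above 1 FPKM only in KO cells under Wnt3a and activin A. Their place among the genes ranked may thus depend on their being high there. Among the members themselves r was highest between Sox17 and Sox7 (0.99) and lowest between Gata4 and Foxa1 (0.711), over the same 12 libraries.

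Other endoderm genes were counted from lists chosen with earlier results of these data known, so the counts carry no test of a list. Over all genes tested under Wnt3a and activin A, 19.6% were called higher and 29.5% lower in KO cells. The shares in LIF were 0.958% and 3.45%. Of 14 transcription factor genes of endoderm and its streak precursors, 10 could be tested under Wnt3a and activin A, and 8 rose and 0 fell in KO cells, with a median log2 fold change of 0.82. Lhx1 (3.53), Mixl1 (1.56), Prdm1 (1.26) and Eomes (1.17) changed most. Prdm1, at 3.01 FPKM in KO cells and 0.694 FPKM in control cells, passed the filter only through the KO libraries. Foxa2, the forkhead relative of Foxa1, was at 63.5 ± 3.04 FPKM in KO cells and 36.8 ± 4.26 FPKM in control cells (SD, n = 3; log2 fold change 0.77, limma adjusted p = 0.00106). The liver and gut factor gene Hnf4a did not pass (0.19, limma adjusted p = 0.603). In LIF 6 of the 14 could be tested and 0 passed in limma, with Otx2 nearest (0.48, limma adjusted p = 0.0534).

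Secreted and surface genes of endoderm were mixed. Of 13 tested under Wnt3a and activin A, 8 rose, among them the antagonist gene Cer1 (2.39), the retinoic acid hydroxylase gene Cyp26a1 (2.06), the Wnt receptor gene Fzd8 (1.10) and Aplnr (0.93), and 5 fell. Among those that fell, the epithelial genes Epcam and Cldn6 were at 103 and 115 FPKM in KO cells and at 163 and 176 FPKM in control cells. The list's median was 0.43, and 2 in place of 5 fell with a trend in gene span and level removed. Primitive and extraembryonic endoderm genes had 9 of 16 higher and 4 lower, with a median of 0.44, and 10 higher and 2 lower with that trend removed. Pdgfra (1.10) and Col4a1 (1.00) rose, while the apolipoprotein gene Apoe (-1.34) and the keratin gene Krt19 (-1.07) fell. Afp, a later visceral endoderm gene, was at 0.144 FPKM in KO cells and listed at 0 in control cells.

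In LIF 2 of 14 extraembryonic endoderm genes tested rose, Col4a1 (0.46) and Lama1 (0.35), and of 7 secreted and surface genes Trh (0.36) and Cldn6 (0.27) rose and Fzd5 (-0.73) fell. The medians were 0.36 and 0.08. In LIF 1 of the 14 rose with a filter of 0.3 FPKM, and 0 with no filter or without a trend in limma, where 1 and 0 of the 7 rose. None of the calls in LIF of any list named here passed when any 1 of the 6 libraries was left out.

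Genes that carry the Nodal and activin signal moved in both directions. Of 13 tested under Wnt3a and activin A, 7 rose, among them the signal transducer Smad3 (1.12), the receptor Acvr2b (0.80) and the protease Furin (0.68), which cleaves the Nodal precursor. The ligand gene Nodal (-0.745), its coreceptor gene Tdgf1 (-0.175), the partner factor gene Foxh1 (-0.50) and the antagonist gene Lefty1 (-0.58) fell, though 2 in place of 4 fell after quantile normalization and 1 with a trend in gene span and level removed. Nodal was at 63.3 ± 2.76 FPKM in KO cells and at 107 ± 0.644 FPKM in control cells (SD, n = 3). In LIF Lefty1 (0.51) and Lefty2 (0.48) rose and Acvr1b (-0.36) and Tdgf1 (-0.26) fell, but 0 of the list fell in limma after median-of-ratios rescaling, quantile normalization or removal of that trend, without a trend in limma or with no filter. Among cofactors and GATA relatives, Zfpm1, which encodes a GATA cofactor, rose (0.89), as did Tle4 (0.56), while Gata1, Gata2 and Gata3 stayed below 1 FPKM on average under Wnt3a and activin A.

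**Figure D4:**
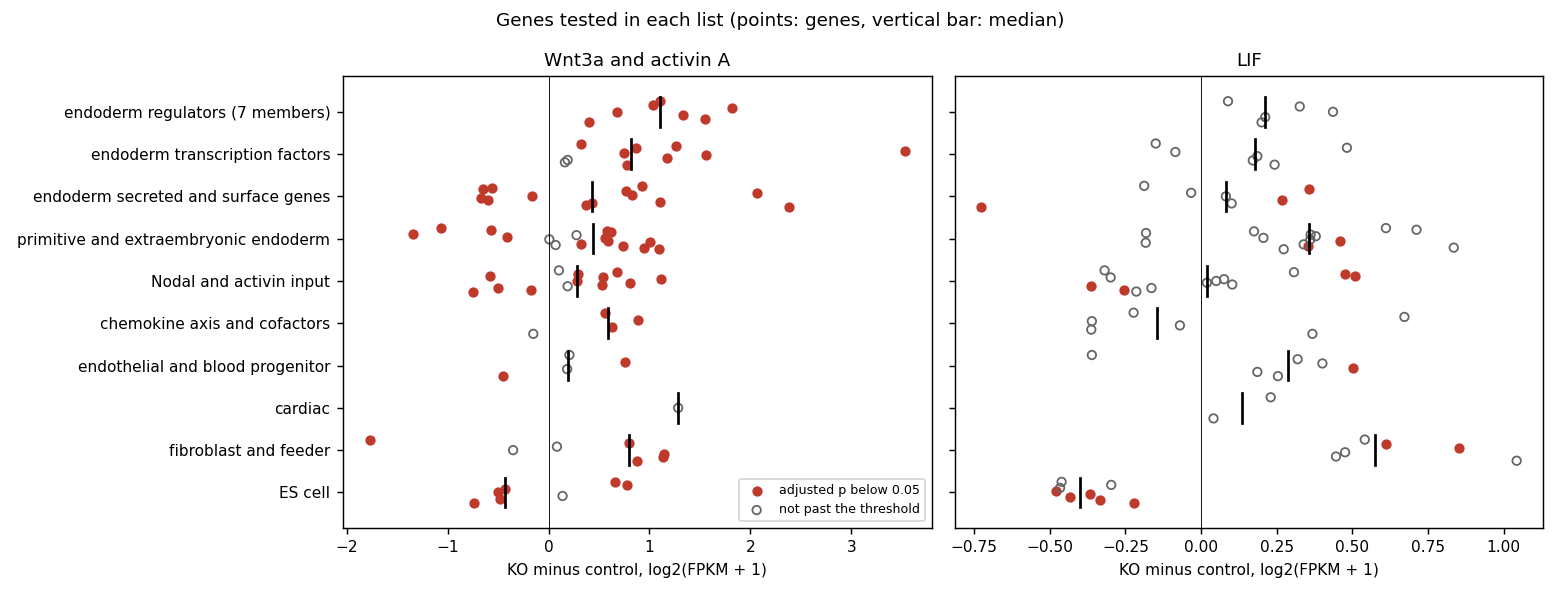
Log2 fold change of KO over control on the log2(FPKM + 1) scale for the genes tested in each list, under Wnt3a and activin A (left) and in LIF (right, on a narrower axis). Filled points passed an adjusted p of 0.05 in limma and bars are medians. The 7 endoderm regulators lie to the right of 0 on the left panel, with a median of 1.11.

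Several of the 7 genes are also expressed in endothelium, heart or other cells, so markers of those cells stand beside them. Endothelial and blood progenitor markers summed to 20.9 to 23.6 FPKM in KO libraries and 16.6 to 19.5 FPKM in control libraries under Wnt3a and activin A. Of its 12 genes 4 could be tested, with Flt1 (0.75) higher and Etv2 (-0.45) lower, neither of which passed with a trend in gene span and level removed. Genes below the filter went both ways. Cdh5 was at 0.525 FPKM in KO cells and 0.284 FPKM in control cells, and Pecam1 at 0.521 FPKM in KO cells and 0.928 FPKM in control cells. Emcn was listed at 0 in all 12 libraries. In LIF the list summed to 42.17 to 47.15 FPKM in KO libraries and 30.77 to 34.58 FPKM in control libraries. That sum rests mainly on Pecam1, which averaged 32.5 FPKM in KO cells and 22.6 FPKM in control cells. Of 6 tested in LIF, 1 rose, Pecam1 (0.50, limma adjusted p = 0.042), though not with no filter or without a trend in limma. Cardiac markers under Wnt3a and activin A summed to 6.69 to 7.62 FPKM in KO libraries and 2.78 to 3.91 FPKM in control libraries. Myl7 was the largest part, averaging 4.27 FPKM in KO cells and 1.45 FPKM in control cells. Of 8 cardiac genes only Myl7 could be tested, and it did not pass (1.28, limma adjusted p = 0.0725), while Hand2 and Nkx2-5 averaged 0.0818 and 0.0567 FPKM in KO cells and 0 and 0.222 FPKM in control cells. In LIF the cardiac sum was 9.125 to 10.34 FPKM in KO libraries and 8.985 to 9.325 FPKM in control libraries. Myl7 averaged 6.44 FPKM in KO cells and 6.22 FPKM in control cells there. Of 7 fibroblast and feeder markers tested under Wnt3a and activin A, 4 were higher, Col3a1 (1.15), Col1a2 (1.13), Col1a1 (0.88) and Timp3 (0.80). Tagln (-1.77) was the 1 that was lower. Their sum, which rests mainly on Tagln and so does not follow the other genes, was 124 to 133 FPKM in KO libraries and 291 to 323 FPKM in control libraries. In LIF that sum was 73.8 to 81.5 FPKM in KO libraries and 39.3 to 60.0 FPKM in control libraries, and 2 of 6 tested, Acta2 (0.85) and Timp3 (0.61), rose, against 1 after quantile normalization, with no filter or with a trend in gene span and level removed. The part of these cells in the values of the endoderm regulators was not tested.

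Markers of undifferentiated ES cells had a negative median in KO cells in both conditions, -0.43 under Wnt3a and activin A and -0.40 in LIF. Under Wnt3a and activin A 4 of 7 fell, among them Pou5f1 (-0.74) and Nanog (-0.48), whose product opposes Gata6 in the early embryo, while Klf4 (0.78) and Tbx3 (0.65) rose; 2 in place of 4 fell after quantile normalization. In LIF 5 of 8 fell, with Esrrb (-0.48) and Sox2 (-0.43) the largest, and 0 rose. That count was 3 after median-of-ratios rescaling or quantile normalization, 3 with no filter or without a trend in limma, and 2 with a trend in gene span and level removed. Their summed level, which rests mainly on Pou5f1, was 1128 to 1223 FPKM in KO libraries and 1866 to 2007 FPKM in control libraries under Wnt3a and activin A. Pou5f1 alone averaged 1110 FPKM in KO cells and 1851 FPKM in control cells in that condition. In LIF the sum was 2153 to 2229 FPKM in KO libraries and 2596 to 2757 FPKM in control libraries.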

How the data were processed

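The deposited tables hold the authors' FPKM for each library and, for KO against control, the authors' test score, p-value and q-value. The submitters' processing notes name Cufflinks 2.2.1, Cuffdiff and STAR 2.5.4a, and the builds mm9 and GRCm38. How libraries were scaled is not stated. FPKM depends on a library's total, so a shift in abundant genes moves the others. The loci of all 7 members overlapped their RefSeq GRCm38.p6 loci. The deposited peak lists carry a score by the authors and were not joined to genes: at GRCm38 coordinates the H3K79me2 list from DMSO cells reached 9.85% of starts of genes at 20 FPKM or more, against 5.35% to 5.52% with starts moved by 1000000 bases, so GRCm38 could not be established for the lists. The planned description of peaks at the members was therefore not run.

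Genes whose mean over the 6 libraries of a KO table reached 1 FPKM were tested within that table by limma 3.58.1 under R 4.3.3, using log2(FPKM + 1) of the deposited values and an intensity trend, with Benjamini-Hochberg adjustment over all genes tested and two-sided tests. Log2 fold changes are KO over control and understate changes of low genes. The interaction used genes tested in both tables. The fit was also run on simulated normal log2 values, drawn independently for each gene and library. Such values cannot test scaling or effects shared within a library. Groups and replicates come from sample titles. Alternatives were other pseudocounts, filters and scalings, no trend, a replicate block and each library left out. Named genes were the members, Dot1l, the 3 genes most correlated with each of Gata4, Gata6, Sox17 and Cxcr4, and up to 4 called genes per list (2 in LIF) by size of change, besides genes named for their role after their values were seen. Members and lists were chosen with earlier results of these data known. Ratios used exact permutation tests in scipy 1.17.1.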

Additional observations from a re-analysis of the deposited data

Results flagged for a closer look

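For 3 endoderm regulators the effect of the knockout differed between the conditions in a test of the difference itself. The log2 difference, Wnt3a and activin A minus LIF, was 1.34 for Gata6, 1.02 for Hhex and 0.90 for Sox17 (interaction in limma over 12 libraries, adjusted p = 1.37e-05, 0.000587 and 0.00122). In each of the 3 genes all 3 KO libraries lay above all 3 control libraries under Wnt3a and activin A. In LIF that held for Gata6 and Sox17 but not for Hhex.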

How the results depend on the processing

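The 7 rises under Wnt3a and activin A each passed, in the same direction, under all 15 alternatives tried, with log2 fold changes of 1.63 to 2.19 for Cxcr4, 1.50 to 1.66 for Gata6, 1.29 to 1.63 for Sox17, 0.99 to 1.26 for Hhex, 0.91 to 1.87 for Foxa1, 0.56 to 0.80 for Sox7 and 0.34 to 0.48 for Gata4. Gata4 had the highest adjusted p among them, 0.0322 without KO replicate 1. With each library left out in turn 7 members passed every time, and in LIF 0 did. In LIF 0 members passed under any alternative. Over all genes the LIF count of 580 was 259 with no filter, 269 with quantile normalization, 236 without a trend, 216 after removal of a trend in gene span and level, 0 with the replicate block, and 1 to 27 with any of the 6 libraries left out. Of the 580, 126 were higher in KO cells, against 127 of 269 after quantile normalization and 118 of 216 after that removal. In the interaction, 5 members in place of 3 passed with a filter of 0.3 FPKM and 5 with no filter, since Cxcr4 and Foxa1 then entered. Sox7 passed there after the same removal (0.59, adjusted p = 0.011) and without a trend in limma (adjusted p = 0.029). It did not pass under the other 19 of 21 alternatives, and with a pseudocount of 0.1 its difference was 0.28 (limma adjusted p = 0.303). With that pseudocount the differences were 0.77 for Sox17 (limma adjusted p = 0.0116), 1.40 for Gata6 and 1.11 for Hhex, and these 3 still passed. The Gata4 difference ranged from -0.0057, without control replicate 2 in LIF, to 0.308, without control replicate 3 in LIF. The replicate numbers do not pair the libraries by the labels, and deviations of same-numbered libraries correlated at -0.012 to 0.062; the replicate block changed no call of a member (highest adjusted p under Wnt3a and activin A 0.0284, Gata4), and under it the Dot1l call in LIF (adjusted p = 0.139) and all list calls in LIF did not pass. Unknown depth limits what can be said of Foxa1 and Cxcr4 in LIF.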

Other observations

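A ligand and receptor pair of the migrating endoderm, chosen after its values were seen, moved apart under Wnt3a and activin A. Aplnr, the apelin receptor gene, was at 51.1 ± 1.38 FPKM in KO cells and 27.3 ± 9.26 FPKM in control cells (SD, n = 3; log2 fold change 0.93, limma adjusted p = 0.0144), while its ligand gene Apela was at 56.9 ± 7.62 FPKM in KO cells and 83.8 ± 4.67 FPKM in control cells (-0.56, limma adjusted p = 0.00602). Kdr, a receptor gene of endothelial and early mesoderm cells that was below the filter, was at 0.577 ± 0.0331 FPKM in KO cells and 0.0358 ± 0.00958 FPKM in control cells (SD, n = 3).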
